A study of Mus musculus with 9 samples.

Results

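The genes described here are 43 DNA replication factors, measured in mouse bone marrow cells that were turned towards eosinophils, the granule-filled white cells that depend on interleukin 5 (IL-5). They were taken by name: the subunits that recognise, license, fire and copy from replication origins, each read from its brightest annotated probe set, the one with the highest mean over the 9 arrays. All 43 were on the array, out of 19938 genes tested. Low-density bone marrow (LDBM) cells, a marrow fraction enriched in blood progenitors, came from pooled marrow of Balb/c mice. They were first expanded for 4 days with stem cell factor (SCF) and FLT3 ligand (FLT3L), both progenitor growth factors, at 100 ng/mL. RNA was collected before IL-5, after 4 days of it and after 10 days of it, with 3 Affymetrix Mouse Gene 1.0 ST arrays each. All 3 groups therefore share the strain, the pooling and the expansion, and no genotype or treatment besides IL-5 and time was labelled as different. The labels do not say whether arrays of a group came from separate cultures or separate animals. The p-values then set the differences between groups against the spread within these samples alone, and that spread may be technical. Days in culture, the change of growth factors and IL-5 cannot be told apart, since a culture without IL-5 for the same days is not analysed here. Precision is limited by the number of arrays.

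DNA is copied once per cell cycle. In G1 the origin recognition complex (ORC), Cdc6 and Cdt1 load the ring-shaped MCM helicase on DNA, which licenses the origin. At the start of S phase the Cdc7 kinase with Dbf4, Cdc45, the GINS complex and Mcm10 turn that ring into a running helicase, and polymerases, the PCNA clamp and its loader, the RPA proteins and the enzymes that join fragments make the new strands. Most of these genes are textbook targets of the E2F transcription factors, and cells that leave the cycle on the way to a mature granulocyte shut them down.

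The E2F letters can be read directly in the promoters of the genes whose signals are given further on, so stretches of them are printed first. The window was 250 bases before to 50 bases after the annotated start, taken from RefSeq on GRCm38.p6, and 35 of the 43 genes had an entry (44 entries). Rfc2, Gins1, Gins2, Gins4, Gmnn, Prim2, Mcm4 and Pole had none. E2F type strings were searched on both strands as TTTGGCGC, TTTCGCGC, TTTCCCGC, TTTGCCGC and GGCGGGAA, of which the last overlaps the complement of TTTCCCGC in part. The stretches below lie before the start, run 5′ to 3′ on the gene's strand, and carry the matches in capitals. Mcm5 and Mcm6 are helicase subunits, Cdc6 and Orc1 license origins, Prim1 and Pola1 begin new strands and Rfc3 loads the clamp, all genes that fell at least 2-fold by day 10. Orc4 is shown against them because it holds a match too, although in a single window, and its other windows held none. It had the smallest fall among the genes that fell or were lower by day 10.
Mcm5, chr8:75109316-75109407, plus strand: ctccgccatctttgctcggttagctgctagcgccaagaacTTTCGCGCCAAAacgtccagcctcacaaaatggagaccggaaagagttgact
Mcm6, chr1:128359706-128359855, minus strand: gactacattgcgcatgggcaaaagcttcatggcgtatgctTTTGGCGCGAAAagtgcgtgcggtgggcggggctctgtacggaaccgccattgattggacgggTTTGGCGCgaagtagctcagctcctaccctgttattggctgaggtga
Cdc6, chr11:98907973-98908060, plus strand: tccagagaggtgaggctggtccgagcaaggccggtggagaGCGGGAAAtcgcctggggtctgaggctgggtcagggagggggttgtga
Orc1, chr4:108579387-108579453, plus strand: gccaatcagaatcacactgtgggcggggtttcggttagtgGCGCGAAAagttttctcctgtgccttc
Prim1, chr10:128015160-128015214, plus strand: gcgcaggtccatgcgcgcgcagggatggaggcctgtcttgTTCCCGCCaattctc
Pola1, chrX:93632246-93632333, minus strand: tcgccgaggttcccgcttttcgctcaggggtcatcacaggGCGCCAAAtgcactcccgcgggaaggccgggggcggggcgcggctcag
Rfc3, chr5:151651209-151651258, minus strand: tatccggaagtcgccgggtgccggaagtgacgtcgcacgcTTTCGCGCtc
Orc4, chr2:48949361-48949448, minus strand: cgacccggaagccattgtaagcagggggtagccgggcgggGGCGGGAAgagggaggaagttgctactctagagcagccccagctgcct

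A match lay in the window of 19 of the 35 replication genes with an entry (54.3%), against 946 of 15614 genes of the array with an entry (6.06%). Over all mouse promoters in the table the share was 4.46% of 27025 genes. In Mcm5 the capitals hold 2 overlapping strings, 1 on each strand, at 153 and 149 bases before the start. Mcm6 carries the same kind of pair at 110 and 106 bases and a single match at 47 bases. In Prim1 and Rfc3 the match sits close to the start, at 15 and 10 bases before it. The windows of the replication genes were also richer in G and C, with a median of 61.8% against 57.3% for the array's genes, and the part of base composition in the match counts was not tested. CCAAT, the box bound by NF-Y, was in the windows of 60% of the replication genes and 41.7% of the array's genes. The CHR strings TTTGAA and TTTAAA, which mark many mitotic promoters, were in 25.7% and 27% of them. A match is a run of letters and not a measured binding site, and a window without one says nothing about the factor.

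**Figure D1:**
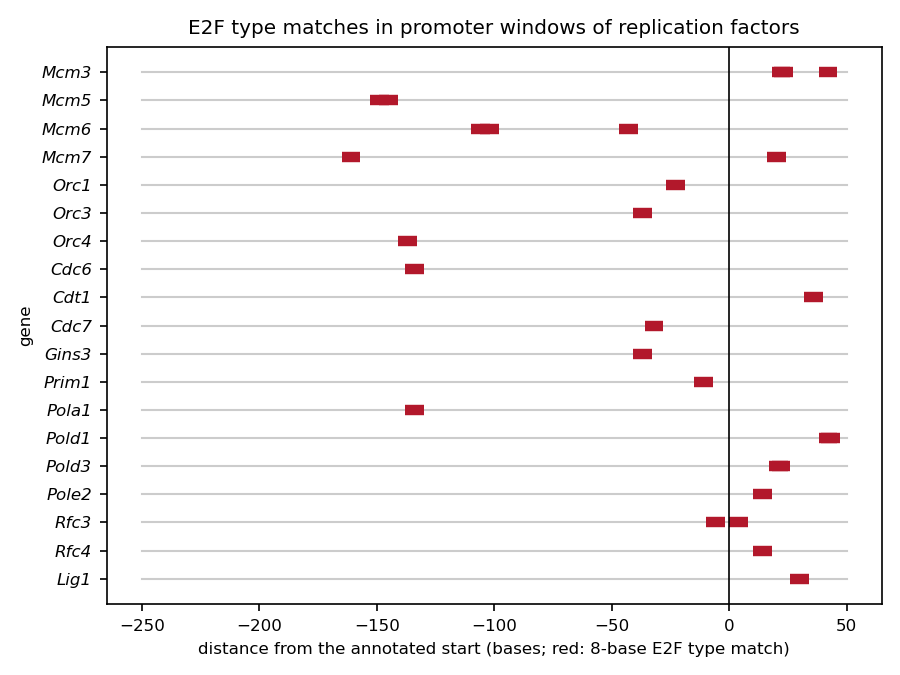
Positions of E2F type letter strings in the promoter windows of the replication genes that hold one; the x axis is the distance in bases from the annotated start and each row is a gene, with the window in grey and matches in red. Matches are spread over the window, from 165 bases before the start in Mcm7 to 10 bases before it in Rfc3, with further ones after the start.

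The replication genes went down together over the IL-5 culture. By day 10 of IL-5, 33 of the 43 had fallen and 0 had risen, where falling means an adjusted p under 0.05 and a drop of at least 2-fold; over all genes tested 9.40% fell and 4.83% rose. At day 4 the fall already took in 15 of them, with 0 rising, against 2.11% and 3.42% of all genes. Between day 4 and day 10 a further step took 6 of them down at least 2-fold and 0 up, against 3.98% and 2.44% of all genes. Their median change on the log2 scale was -0.88 at day 4 and -1.58 at day 10, both relative to the arrays before IL-5, and -0.72 from day 4 to day 10, where the medians of all genes were -0.11, -0.07 and 0.02. Quantile normalization across the arrays ended the day 4 calls of Mcm5, Mcm6, Gins2, Pole2 and Rfc4 and the later calls of Gins1 and Rfc4, all near the 2-fold limit. In percent, the median gene kept 54.4% of its starting signal at day 4 and 33.5% at day 10. These 3 comparisons share arrays and are not independent of each other. In such bulk RNA, fewer cells of a cycling type and less RNA per cell cannot be told apart.

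Without the 2-fold limit the fall covered nearly all of them. At an adjusted p under 0.05 alone, 42 lay below their level before IL-5 after the first 4 days and 42 after 10, where the shares of all genes were 20.0% and 27.6%. From day 4 to day 10, 38 were lower (20.2% of all genes) and 1, Rfc2, was higher (11.7% of all genes). All 43 changes were negative in the comparisons with the cells before IL-5, in which 11.5% of all genes were higher at day 4 and 14.8% at day 10. For 40 of the 43, the 3 arrays before IL-5, the 3 at day 4 and the 3 at day 10 lay at 3 separate levels, each below the last. The same held for 12.6% of all genes. Orc4, Gmnn and Rfc2 were the exceptions among the 43. Averaged over the 43 genes, the arrays read 9.19, 9.15 and 9.16 before IL-5, 8.35, 8.38 and 8.28 at day 4 and 7.58, 7.69 and 7.71 at day 10. In that average the groups stood apart by more than their spread. Day 10 replicate 1 held the lowest day 10 value for 29 of the 43 genes.

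**Figure D2:**
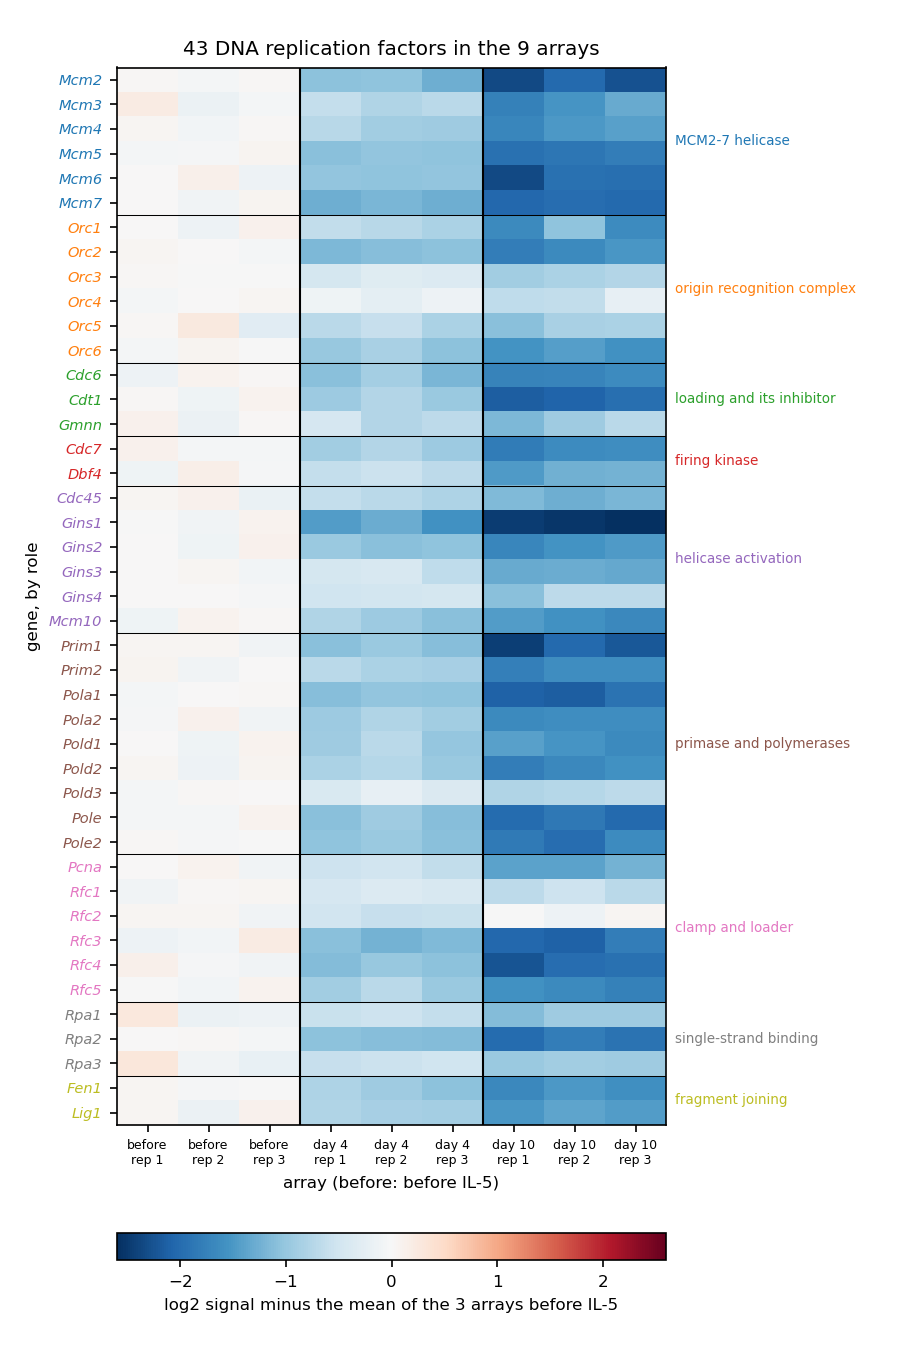
Deposited log2 signal of each of the 43 replication genes on each of the 9 arrays, as the difference from that gene's mean before IL-5, in log2 units; rows are genes by role and columns are arrays. Nearly every row darkens in steps from before IL-5 to day 4 to day 10, and the Rfc2 row returns to its starting level at day 10.

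The MCM2-7 helicase, the ring that unwinds DNA, fell as a whole. All 6 subunits had fallen by day 10 and kept between 21.5% and 34.5% of their starting signal. Mcm2 stood at 10.60, 10.52 and 10.60 before IL-5, 9.50, 9.53 and 9.31 at day 4 and 8.22, 8.54 and 8.30 at day 10. The groups did not overlap, and it was 4.65-fold lower at day 10 (log2 change -2.22, SE 0.11, adjusted p = 4.9e-09) with nearly equal changes of -1.12 and -1.09 in the first 4 days and the next 6. Mcm6 read 10.85, 10.98 and 10.72 before IL-5, 9.82, 9.80 and 9.82 at day 4 and 8.50, 8.92 and 8.88 at day 10. Its 3 day 4 arrays lay within an SD of 0.0102, the smallest of any replication gene in any group, and it ended 4.23-fold lower (log2 change -2.08, SE 0.123, adjusted p = 2.27e-08). Mcm7 was at 11.15, 11.05 and 11.21 before IL-5, 9.88, 9.95 and 9.87 at day 4 and 9.10, 9.15 and 9.12 at day 10. It dropped most of the helicase genes in the first 4 days, with -1.24 ± 0.0913 (SE; adjusted p = 6.11e-07), and reached -2.02 at day 10. Mcm5, Mcm3 and Mcm4 changed by -1.86, -1.54 and -1.54 over the whole course, and none overlapped between groups. At day 4 the 2-fold limit was passed by Mcm2, Mcm5, Mcm6 and Mcm7, and from day 4 to day 10 by Mcm2 and Mcm6. Mcm6 sat close to that limit: it was short of 2-fold at day 4 without replicate 2 of the cells before IL-5 (-0.97), and from day 4 to day 10 without day 10 replicate 1 (-0.92).

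The origin recognition complex, which marks where the helicase is loaded, was lower in all 6 subunits at day 10. Orc1, Orc2 and Orc6 passed the 2-fold limit, while Orc3, Orc4 and Orc5 were lower at adjusted p alone, and differences between subunits were not tested. Orc1, the subunit that comes and goes with the cell cycle, went from 6.94 ± 0.128 (SD, n = 3) before IL-5 to 6.21 ± 0.101 at day 4, then 5.49 ± 0.347 at day 10. Its day 10 arrays had the widest spread of any replication gene, at 5.28, 5.89 and 5.31, yet all lay below the day 4 arrays. Orc2 stood at 9.19, 9.16 and 9.08 before IL-5, 7.97, 8.04 and 8.07 at day 4 and 7.35, 7.48 and 7.62 at day 10. It made most of its drop early, with -1.12 ± 0.1 (SE; adjusted p = 3.21e-06) at day 4 and -0.54 ± 0.1 (adjusted p = 0.000973) from day 4 to day 10. The difference between those steps was 0.57 ± 0.174 (SE; adjusted p = 0.0385), and its adjusted p lay between 0.00894 and 0.161 in the alternatives tried. It was above 0.05 without replicate 1 or 2 of the cells before IL-5, without any 1 of the day 4 arrays, and without day 10 replicate 2 or 3. Orc6, which joins the complex to DNA, changed by -0.96 at day 4 and -1.53 at day 10. Without day 4 replicate 2 its day 4 change passed 2-fold (-1.02), beside that of Orc2.

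Orc4 changed least of the origin complex. It read 8.23, 8.30 and 8.34 before IL-5, 8.17, 8.03 and 8.16 at day 4 and 7.63, 7.65 and 8.07 at day 10. The day 4 arrays lay below those before IL-5 by a small margin, with a difference of -0.17 ± 0.122 (SE; adjusted p = 0.337) that did not pass the test. At day 10 it was lower, with a change of -0.50 ± 0.122 (SE; adjusted p = 0.00406), and the third day 10 array lay within the range of day 4. Orc5 was at 8.34, 8.56 and 8.0 before IL-5, 7.59, 7.71 and 7.48 at day 4 and 7.21, 7.45 and 7.47 at day 10. Its change at day 4 was -0.71 ± 0.14 (SE; adjusted p = 0.00165), and the further -0.22 ± 0.14 (SE; adjusted p = 0.282) from day 4 to day 10 did not pass the test. The difference between those steps, 0.49 ± 0.243 (SE; adjusted p = 0.198), did not pass either. Before IL-5 Orc5 also had the widest spread of the replication genes (SD 0.282), and without the third of those arrays its day 10 change reached 2-fold (-1.07). Orc3 ended at -0.83 ± 0.093, with no overlap between groups.

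Of the loading factors, Cdt1 and Cdc6 fell and Gmnn, whose product geminin holds Cdt1 back, stayed short of 2-fold. Cdt1, which brings the helicase to the origin, was at 9.69, 9.53 and 9.75 before IL-5, 8.70, 8.89 and 8.69 at day 4 and 7.50, 7.56 and 7.70 at day 10. It is the 1 replication gene that fell at least 2-fold between day 4 and day 10 (log2 change -1.18, SE 0.107, adjusted p = 2.61e-06) and not in the first 4 days (log2 change -0.89, SE 0.107, adjusted p = 3.37e-05), and by day 10 it kept 23.8% of its signal. Whether its later step exceeded its earlier one was tested, and the difference of -0.28 ± 0.185 (SE; adjusted p = 0.337) did not pass. Cdc6, the ATPase that loads the ring, went from 8.45 ± 0.119 (SD, n = 3) to 7.40 ± 0.151 and 6.75 ± 0.0545, a change of -1.05 at day 4 and -1.70 at day 10. Its day 4 call was lost when replicate 2 from before IL-5 was left out (-1.0), or day 4 replicate 3 (-0.98). Gmnn was lower, with changes of -0.63 ± 0.134 (SE; adjusted p = 0.00274) at day 4 and -0.93 ± 0.134 (SE; adjusted p = 6.57e-05) at day 10. From day 4 to day 10 its difference was -0.30 ± 0.134 (SE; adjusted p = 0.109), which did not pass the test, and its arrays of those days overlapped. Its day 10 change reached 2-fold without replicate 2 of the cells before IL-5 (-1.01) or without day 10 replicate 3 (-1.05).

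Cdc7 and Dbf4, the kinase and its activating subunit that fire licensed origins, both fell by day 10 and not by day 4. Cdc7 was at 7.67 ± 0.096 (SD, n = 3) before IL-5, 6.80 ± 0.099 at day 4, then 5.98 ± 0.109 at day 10, a change of -1.69 ± 0.104 (SE; adjusted p = 3.05e-08) over the course. Dbf4 changed by -0.61 ± 0.11 at day 4 and by -1.31 ± 0.11 at day 10. For both genes the 3 groups of arrays did not overlap.

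The helicase activators held the deepest fall of all. Gins1, 1 of the 4 GINS subunits that complete the running helicase, stood at 9.05, 8.96 and 9.15 before IL-5, 7.61, 7.77 and 7.49 at day 4 and 6.59, 6.54 and 6.45 at day 10. No other replication gene lost as much in either the first 4 days (log2 change -1.43, SE 0.105, adjusted p = 5.89e-07) or the whole course (log2 change -2.53, SE 0.105, adjusted p = 1.11e-09), and 17.3% of the starting signal was left, a 5.77-fold drop. The other GINS genes were uneven. Gins2 ended at -1.58 ± 0.102 and Gins3 at -1.31 ± 0.1, both past 2-fold, while Gins4 ended at -0.82 ± 0.114 and kept 56.7%. Subunits of 1 complex therefore kept between 17.3% and 56.7% of their signals on this array, where each probe set has its own response. Gins2 lost its day 4 call without the third of the arrays before IL-5 (-0.98). Cdc45, the third component of the running helicase, changed by -0.70 at day 4 and -1.20 at day 10. Mcm10, which helps to start it, changed by -0.94 at day 4, just short of 2-fold, and by -1.57 at day 10. Without day 4 replicate 1 its day 4 change passed (-1.01).

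All but 1 of the 9 primase and polymerase genes fell by day 10. Prim1, the catalytic primase subunit that lays the RNA primer, read 9.60, 9.59 and 9.45 before IL-5, 8.46, 8.58 and 8.44 at day 4 and 7.10, 7.51 and 7.34 at day 10. It fell in both steps, with changes of -1.05 ± 0.115 (SE; adjusted p = 1.67e-05) and then -1.18 ± 0.115 (SE; adjusted p = 5.26e-06), and kept 21.3% of its signal at day 10. Pola1, the catalytic subunit of polymerase alpha that extends the primer, went from 9.60 ± 0.0509 (SD, n = 3) to 8.54 ± 0.0437 and 7.54 ± 0.125. Its step from day 4 to day 10 stopped just under 2-fold, with 50.1% of the day 4 signal left (adjusted p = 5.41e-06), and it passed that limit without day 4 replicate 1 (-1.02) or day 10 replicate 3 (-1.07). The leading-strand polymerase epsilon subunits Pole and Pole2 changed by -1.96 and -1.82 at day 10, and both had fallen by day 4 (-1.03 and -1.03). Pole lost that day 4 call without the third of the arrays before IL-5 (-0.98). Of polymerase delta, which copies the lagging strand, the catalytic Pold1 and the accessory Pold2 fell by day 10, with -1.53 and -1.68. Pold3 was lower, with -0.74 ± 0.0949 (SE; adjusted p = 2.49e-05), and kept 60.1%. Prim2 and Pola2, the partners of Prim1 and Pola1, ended at -1.67 and -1.63.

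**Figure D3:**
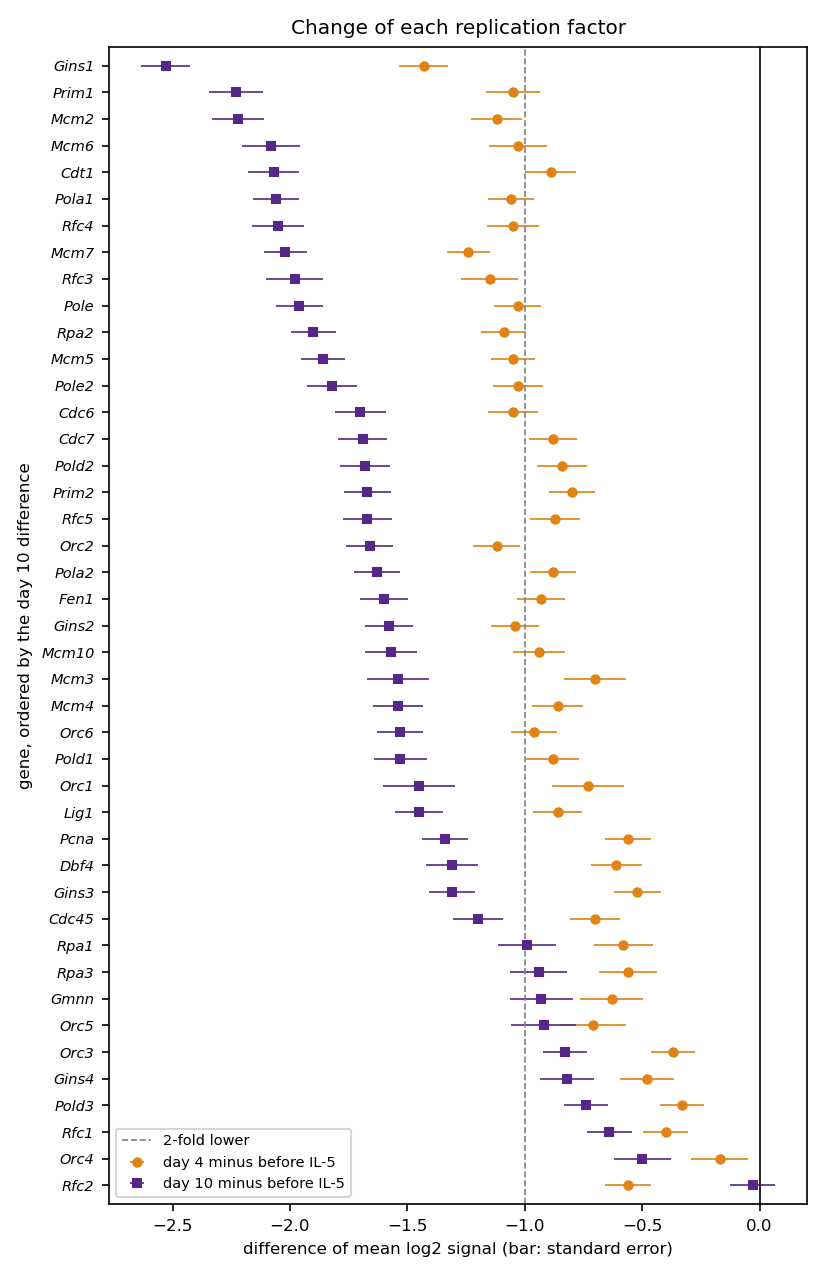
Log2 change of each replication gene from before IL-5 to day 4 (circles) and to day 10 (squares), with bars of 1 SE from limma; rows are genes ordered by the day 10 change, with a dashed line at a 2-fold drop. Gins1 reaches -2.53 at day 10, Orc4 -0.50, and Rfc2 is the 1 gene whose day 10 point lies at its starting level (-0.03).

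The sliding clamp and its loader fell with 1 subunit out of step. Pcna, the clamp that holds polymerases on DNA, was at 11.87 ± 0.0896 (SD, n = 3) before IL-5, 11.32 ± 0.0677 at day 4, then 10.53 ± 0.094 at day 10, a change of -1.34 ± 0.0984 (SE; adjusted p = 1.47e-07). A second Pcna probe set gave -1.31 and correlated with the first at 1.000 over the arrays, so it may not be a separate reading. Of the 5 loader subunits, Rfc3, Rfc4 and Rfc5 fell by day 10. Rfc3 stood at 8.76, 8.81 and 9.10 before IL-5, 7.81, 7.67 and 7.74 at day 4 and 6.84, 6.79 and 7.10 at day 10. Its 3 groups did not overlap, and it changed by -1.15 ± 0.12 (SE; adjusted p = 1.08e-05) at day 4 and -1.98 by day 10. Rfc4 changed by -1.05 at day 4 and -2.05 in all, keeping 49.9% of its day 4 signal at day 10, with both single steps at the edge of the limit. The day 4 call was lost without replicate 1 of the cells before IL-5 (-0.99), and the later one without day 4 replicate 2 (-0.96) or day 10 replicate 1 (-0.91). Rfc5 ended at -1.67 ± 0.106. Rfc1, the large subunit, was lower at day 10, with -0.64 ± 0.0958 (SE; adjusted p = 9.04e-05), and its step from day 4 to day 10, -0.24 ± 0.0958 (SE; adjusted p = 0.0729), did not pass the test.

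Rfc2 went down and came back. It read 9.99, 10.00 and 9.84 before IL-5, 9.44, 9.34 and 9.36 at day 4 and 9.93, 9.81 and 9.99 at day 10. All day 4 arrays lay below the other 6, and the day 10 arrays lay within the range of those before IL-5 or within a few hundredths of it. The change at day 4 was -0.56 ± 0.097 (SE; adjusted p = 0.000601) and the gain from day 4 to day 10 was 0.53 ± 0.097 (SE; adjusted p = 0.000915), so that 97.6% of the starting signal was present at day 10 (log2 change -0.03, SE 0.097, adjusted p = 0.815). In a contrast chosen after the values were seen, the change from day 4 to day 10 minus that of the first 4 days was 1.09 ± 0.168 (SE; adjusted p = 0.000462). Over all genes 7.89% passed that contrast upwards and 9.37% downwards, and among the 43 replication genes 2 passed it upwards, Rfc2 and Orc2, and 0 downwards. For Rfc2 the contrast passed in all 16 alternatives tried, lying between 1.04 and 1.15. Only 1 probe set carried the Rfc2 symbol alone, so it has no second reading here. Among its nearest genes on the chromosome, chosen after the values were seen, Clip2 rose by 1.02 and Lat2 fell by 1.46 on the log2 scale at day 10. Eif4h (-0.86), Limk1 (-0.86) and Gtf2ird1 (-0.71) were lower at adjusted p alone, and Syna, which did not pass, was at -0.16 (adjusted p = 0.464). Clip2 lost its call without replicate 2 of the cells before IL-5 (0.87) or without day 10 replicate 2 (0.9).

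**Figure D4:**
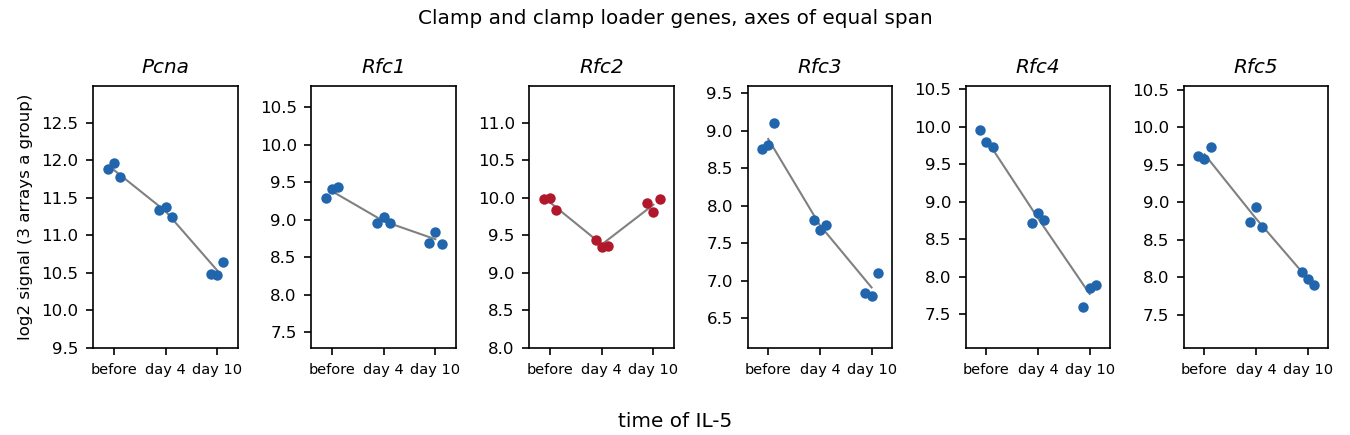
Deposited log2 signal of Pcna and the 5 clamp loader genes on each of the 9 arrays, points for arrays and lines through group means; the x axis gives the group, and the y axes differ in level but have equal span. Rfc3, Rfc4 and Rfc5 drop at each step, while the day 10 arrays of Rfc2 (9.93, 9.81 and 9.99) are back at the level before IL-5 (9.99, 10.00 and 9.84).

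The RPA proteins, which coat single-stranded DNA, were all lower, and Rpa2 passed 2-fold. Rpa2 went from 10.09 ± 0.0459 (SD, n = 3) to 8.99 ± 0.0293 and 8.18 ± 0.108, keeping 26.7%. Rpa1 changed by -0.99 ± 0.125 (SE; adjusted p = 2.06e-05) at day 10, just short of 2-fold, and passed it without replicate 2 or 3 of the cells before IL-5 (-1.06 and -1.05) or without day 10 replicate 2 or 3 (-1.02 for both). Rpa3, the smallest subunit, was at 7.91, 7.52 and 7.42 before IL-5, 7.02, 7.06 and 7.10 at day 4 and 6.65, 6.71 and 6.69 at day 10. At day 10 it was lower, with -0.94 ± 0.122 (SE; adjusted p = 2.71e-05), and reached 2-fold without the third array before IL-5 (-1.04). From day 4 to day 10 its brightest probe set gave -0.38 ± 0.122 (SE; adjusted p = 0.0309), while a dimmer one gave -0.08, so the probe sets of Rpa3 disagree on the later step. Both gave -0.94 over the whole course.

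Fen1, the nuclease that trims the flap between fragments, and Lig1, the ligase that seals them, fell by day 10 to 33.1% and 36.5% of their signals. Fen1 changed by -0.93 at day 4 and by -1.60 ± 0.101 (SE; adjusted p = 4e-08) at day 10. Lig1 changed by -0.86 and -1.45 ± 0.103 (SE; adjusted p = 1.11e-07). Neither reached 2-fold at day 4.

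Which of the 2 steps was the lower one differed little between the replication genes and all genes. The first step was the lower one for 31 of the 43 and the second for 12, and it was the lower one for 66.3% of all genes. For a gene that rises, a lower first step means a larger later rise, so the share of all genes is no measure of early falls. The median difference, second step minus first, was 0.16 for the replication genes and 0.16 for all genes, and the difference passed the test for Orc2 and Rfc2 alone among the 43. In the 42 genes that were lower by at least 0.5 on the log2 scale at day 10, the share of that change present at day 4 had a median of 55.9% and ran from 33.1% in Orc4 to 76.7% in Orc5. By the 2-fold limit, 5 genes fell at least 2-fold in both steps, namely Mcm2, Mcm6, Gins1, Prim1 and Rfc4, 10 in the first alone, Cdt1 in the second alone, and 17 in neither step but over the whole course. The 10 genes that did not fall by day 10 were Orc3, Orc4, Orc5, Gmnn, Gins4, Pold3, Rfc1, Rfc2, Rpa1 and Rpa3. The spread between arrays was small beside the changes, with a median SD over the 43 genes of 0.0896 before IL-5, then 0.0831 (day 4) and 0.108 (day 10).

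The 19 genes with an E2F type match in the window had a median change of -0.89 at day 4 and -1.70 at day 10. The 16 with an entry but no match had -0.85 and -1.55, and the 8 without an entry -0.83 and -1.56. By day 10, 16 of the 19, 12 of the 16 and 5 of the 8 had fallen. Orc4, printed above with its match, changed by -0.50 at day 10, and Prim1 and Mcm6, printed beside it, by -2.23 and -2.08.

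Other genes of DNA copying and of the cell cycle were counted from lists to set beside the replication factors. Over all genes 2.11% fell at day 4, 9.40% by day 10 and 3.98% from day 4 to day 10, while 3.42%, 4.83% and 2.44% rose. Of 35 further fork and origin genes, 5 fell at day 4, 24 by day 10 and 1 from day 4 to day 10, with 0 rising, and their medians were -0.61, -1.21 and -0.53. The 5 at day 4 became 2 without the third array before IL-5 and 3 without day 4 replicate 3, and the 1 of the later step became 4 without day 10 replicate 2, 2 without any 1 of the day 4 arrays and 0 under quantile normalization. Dtl, part of the ubiquitin ligase that removes Cdt1 in S phase, changed by -2.27 at day 10. Timeless, which protects the fork, changed by -2.01, and Uhrf1, which carries DNA methylation over to the new strand, by -1.88. The 24 genes of nucleotide supply were the list nearest to the replication factors in its medians (-0.95, -1.60 and -0.66). Of them 12 fell and 1 rose at day 4, 17 fell and 1 rose by day 10, and 2 fell and 0 rose from day 4 to day 10. Ppat, the first enzyme of purine synthesis, changed by -2.88 and Mthfd1, which supplies folate units, by -2.48 at day 10. Samhd1, which breaks deoxynucleotides down, was the 1 that rose, by 2.13 at day 10.

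Among 16 genes of S phase cyclins, kinases and their regulators, kinase inhibitors included, 2 fell at day 4 and 8 by day 10. From day 4 to day 10 the count was 1, and 0 rose in each comparison. The medians were -0.62, -1.01 and -0.37. At adjusted p alone, 11 were lower and 2 higher at day 10, and 8 lower and 3 higher from day 4. The shares of all genes were 27.6% lower and 14.8% higher at day 10, and 20.2% and 11.7% from day 4. The largest gain at day 10 was 0.79, in the kinase inhibitor Cdkn1b, named after its value was seen. With the mean of a gene's probe sets Cdkn1b rose by 1.31 (adjusted p = 1.22e-07), which made the rising count 1. The 8 that fell by day 10 became 5 under quantile normalization or without day 10 replicate 1. Cdk4, the G1 kinase, changed by -2.06, and Skp2, which targets cell cycle inhibitors, by -1.56. Cdk4 made up the later fall, and its call there was lost under quantile normalization, which left 0, and without day 10 replicate 1 (-0.97), as was its day 4 call without the third array before IL-5 (-0.97) or without day 4 replicate 1 (-0.95). Of 18 E2F and RB family genes, 1 fell at day 4 and 6 by day 10, 1 rose by day 10, and 1 fell and 1 rose from day 4 to day 10, with medians of -0.44, -0.64 and -0.23. Rbl2, the p130 pocket protein of resting cells, was the one that rose, by 1.73 ± 0.0962 (SE; adjusted p = 1.37e-08) at day 10 and 1.36 from day 4. Lin9, its partner in the DREAM complex, changed by -1.76 over the course, and its later fall was lost without day 10 replicate 1 (-0.97), while 2 genes of the list fell in that step without day 4 replicate 2 or without day 10 replicate 2 or 3. Mybl2, a MYB family factor of cycling cells, changed by -1.62. E2f1 and E2f2, named after their values were seen, went opposite ways at day 10. E2f1 changed by -0.83 and E2f2 by 0.63 (adjusted p = 0.000401), both short of 2-fold. At adjusted p alone, 11 genes of the list were lower and 3 higher at day 10, the latter near the 14.8% of all genes. Of 39 mitosis genes, 1 fell at day 4, 22 by day 10 and 0 from day 4 to day 10, with 0 rising and medians of -0.60, -1.05 and -0.48, although 34 were lower in the later step at adjusted p alone. The day 4 count was near the share of all genes that fell then (2.11%). Bub1, a spindle checkpoint kinase, changed by -1.71 and Aurkb, a kinase of chromosome segregation, by -1.48 at day 10. Mki67, the proliferation marker, was chosen after its values were seen and did not pass the test, with -0.05 ± 0.097 (SE; adjusted p = 0.747) at day 4 and -0.24 ± 0.097 (SE; adjusted p = 0.0633) at day 10.

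**Figure D5:**
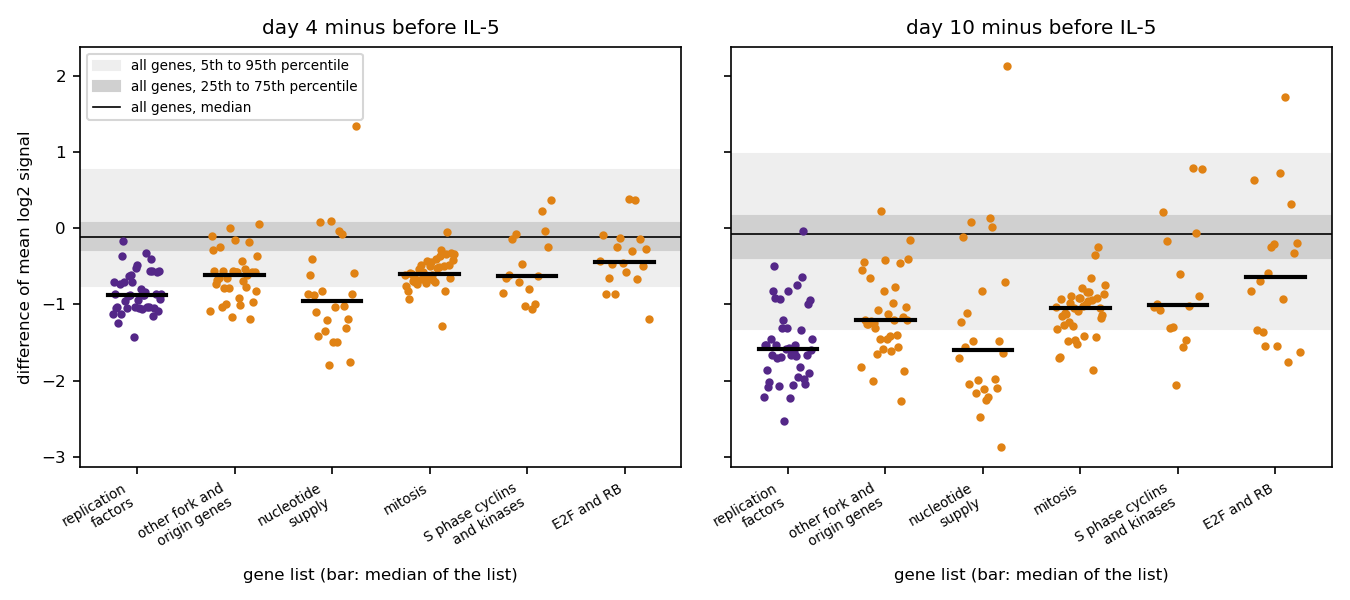
Log2 changes from before IL-5 to day 4 (left) and to day 10 (right) for the replication genes and 5 related lists, a point per gene with the list's median as a bar; the thin line and grey bands give the median and percentiles of all genes. The medians at day 10 are -1.58 for the replication genes, -1.60 for nucleotide supply and -1.21 for other fork and origin genes. They are -1.05 for mitosis, -1.01 for S phase cyclins, kinases and their regulators and -0.64 for the E2F and RB list.

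Signals of cell type markers moved alongside the replication genes. The 7 eosinophil markers averaged between 7.25 and 7.42 per array before IL-5, 10.22 and 10.31 at day 4 and 12.20 and 12.25 at day 10, and all 7 rose by both days. The 7 progenitor markers averaged 8.91 to 8.97, 7.87 to 8.02 and 6.70 to 6.82, and 4 had fallen at day 4 and 6 by day 10. Kit, the SCF receptor, named after its values were seen, went from a mean of 9.87 to 9.61 and 7.33, and Flt3, the FLT3L receptor named likewise, from 9.54 to 9.44 and 5.98. Gata2 of the same list, named likewise, went the other way, with 0.18 at day 10 and 0.68 from day 4 to day 10. In that later step 4 of the 7 progenitor markers fell and 1 was higher at adjusted p alone. Markers of some other lineages went down as well, while those of others rose. The 6 erythroid markers averaged 8.25 to 8.45 before IL-5, 5.32 to 5.59 at day 4 and 5.24 to 5.46 at day 10, and all 6 had fallen by both days. The 6 B cell markers averaged 8.47 to 8.57, 6.00 to 6.26 and 5.19 to 5.28, and all 6 had likewise fallen. The 4 neutrophil primary granule genes stood at 11.85 to 12.06 before IL-5, 11.54 to 11.60 at day 4 and 7.13 to 8.66 at day 10, when all 4 had fallen. In monocyte and macrophage markers the averages were 6.74 to 6.92, 9.47 to 9.58 and 8.58 to 9.46. Of these 8 markers, 7 had risen at day 4 and 6 by day 10, when 1 had fallen. Later neutrophil markers averaged 8.78 to 9.04, 10.57 to 10.64 and 9.85 to 10.21, and 5 of the 6 had risen at day 4 and 3 by day 10. Mast cell and basophil markers averaged 8.39 to 8.44, 8.05 to 8.15 and 6.67 to 7.22, and 1 of the 5 had fallen at day 4 and 3 by day 10. T and NK cell markers averaged between 5.50 and 6.13 on all arrays, but singly 3 of 6 had fallen at day 10 (Nkg7 -2.57 at the low end) and 2 had risen (Cd3g 3.21 at the high end). Megakaryocyte markers averaged between 9.07 and 9.83, and 1 of 4 had risen at day 10 (Itga2b 1.30). Over all genes the day 10 arrays averaged 6.26, 6.23 and 6.32. Day 10 replicate 3 gave the highest day 10 average for primary granule genes (8.66), monocyte and macrophage markers (9.46) and megakaryocyte markers (9.83). It was also the highest for progenitor (6.82), erythroid (5.46), B cell (5.28), later neutrophil (10.21) and mast cell and basophil markers (7.22). It was not the highest for eosinophil or T and NK cell markers. The part of these shifts in the fall of the replication genes was not tested.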

How the data were processed

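Gene expression was measured on Affymetrix Mouse Gene 1.0 ST arrays in 9 samples, 3 per group, with groups and replicate numbers from the sample titles. Deposited log2 values, 1 per probe set and array, came from Affymetrix Expression Console 1.1.2637.26569, per the submitters' processing notes, and the labels name its default gene-level RMA summary. Its settings were not given in the sources used here. RMA compresses changes of dim genes and gives all arrays similar distributions, and array medians lay between 5.67 and 5.75. Correlations between arrays were 0.991 to 0.996 within groups and 0.927 to 0.969 between groups. Of 35557 probe sets, 21789 carried 1 gene symbol in the probe table and the others were left out. For the 999 genes with several, the brightest was kept, giving 19938 genes. No filter on low values was used: 0 of the 43 replication genes had a mean under the lower quartile of all genes (4.66).

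Changes are differences of group mean log2 signal, later minus earlier, tested by limma 3.58.1 under R 4.3.3, with lmFit and eBayes on 3 group means (degrees of freedom: 6 residual, 6.47 prior). Two-sided p-values were adjusted over all 19938 genes by Benjamini and Hochberg's method, within each comparison. A gene rose or fell at an adjusted p under 0.05 and a change of at least 2-fold. The script was tested on simulated data. The replication genes and all gene lists were chosen with earlier results of these data known. Array values are given for the 5 deepest falls in each comparison, the largest positive and smallest changes and genes whose probe sets disagree in a call; of the other lists, called genes among the 5 with the largest changes are named, unless said otherwise. Promoter windows came from RefSeq on GRCm38.p6, matched by symbol. Alternatives were quantile normalization, subtracted array medians, the mean of a gene's probe sets, a filter on dim genes, 3 other limma settings (trend and robust, array weights, 6 arrays in the fit), the replicate number as a block and each array left out.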

Additional observations from a re-analysis of the deposited data

How the results depend on the processing

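Across 17 alternative settings per comparison, the counts of replication genes that fell stayed within 1.5 times the reported ones: 10 to 16 at day 4, 33 to 36 by day 10 and 4 to 7 from day 4 to day 10, with 0 rising in each. Quantile normalization moved the median change of the replication genes to -1.45 at day 10 and to -0.64 from day 4 to day 10, and their medians without it were -1.58 and -0.72. It also turned the sign of values near 0 that passed no test: Rfc2 at day 10 became 0.06 and Mki67 at day 4 became 0.03. Leaving out 1 array at a time put Rfc2 at day 10 between -0.09 and 0.02. The cause was not tested. By the replicate numbers of the titles no pairing was seen: deviations of same-numbered arrays correlated between -0.119 and 0.077, with 0 of 9 pairs over 0.1. Arrays with different numbers ran from -0.163 to 0.184, the latter for day 4 replicate 2 with day 10 replicate 1. The sample descriptions give other numbers for 1 array before IL-5 and all 3 at day 10, and pairing by other numbers was not tested. With the replicate block 15, 33 and 6 replication genes fell, and the adjusted p of the Orc2 contrast between steps became 0.0691. That contrast passed upwards for 1 replication gene with the block and for 4 with array weights, against 2 without either. With 3 arrays a group and signals compressed by RMA, changes well under 2-fold in dim genes are the least certain.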
